A study of Mus musculus with 54 samples.

Results

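The transcripts of myogenic progenitors whose only emerin was a deletion mutant, Δ95–99, were compared with those of wildtype progenitors on day 1 of differentiation. Both were H2K cells, conditionally immortal mouse skeletal muscle progenitors that are kept dividing with γ-interferon and that fuse into myotubes once the serum is changed. The wildtype group (labelled T=24, 24 h after the change of medium) held 3 libraries, and so did the Del9599 group at T=24, together 6 of the 54 libraries of the series. Every gene in the table that sets these groups against each other was taken, 17508 in all, by its 2 group levels, which are in normalized counts. The Δ95–99 line was made from EMD−/y progenitors, which have no emerin of their own, by lentiviral transduction with an emerin that lacks residues 95 to 99. The transduced cells were selected and grown in puromycin. Wildtype cells were neither transduced nor selected and, by the study's methods, were seeded more sparsely, so the deletion, the null background, transduction, selection and plating cannot be told apart in this comparison. The labels describe technical replicates of biological replicates without saying which library is which. The table gives each group as 1 value with no spread between libraries, so no difference below was tested and all are descriptions of 2 groups of 3 libraries.

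Emerin is a protein of the inner nuclear membrane that binds lamins, the chromatin-bridging protein BAF and the deacetylase HDAC3, and its loss causes Emery–Dreifuss muscular dystrophy. When progenitors differentiate, they leave the cell cycle, pass from Myf5 and Pax7 to myogenin, and then, with Mef2 factors, switch on the genes of the sarcomere, of calcium release and of membrane fusion. Genes are described here by those roles.

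Where 2 levels are given for a gene, wildtype comes first and Δ95–99 second. Differences are given as log2((Δ95–99 + 1)/(wildtype + 1)). A gene was compared when the higher of its levels reached 10, which left 13519 genes, and it was counted as higher or lower when the levels were at least 2-fold apart. By this rule 1195 genes were higher in Δ95–99 (8.84% of those compared) and 1632 were lower (12.1%). List counts below are to be read beside these shares. A count near them is no result about its list. Larger gaps were more often downward, with 148 genes at least 8-fold higher and 391 at least 8-fold lower. The median difference over all compared genes was -0.01. When each group was divided by its sum over all genes, the median moved up by 0.13 and the counts became 1501 higher and 1453 lower.

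**Figure D1:**
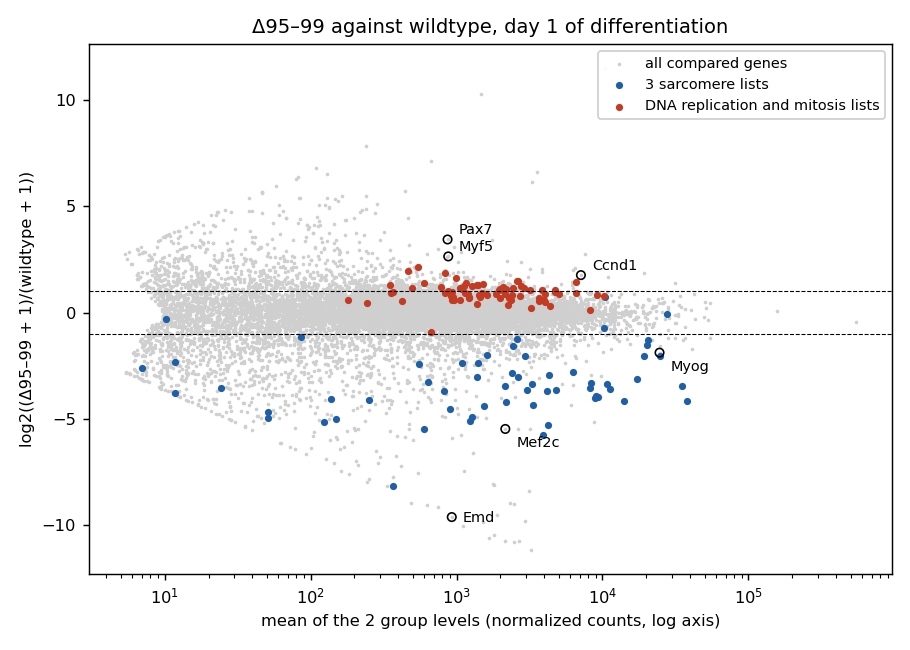
Each point is 1 of the 13519 compared genes, with the mean of its 2 group levels on the x axis (normalized counts, log axis) and the log2 difference of Δ95–99 from wildtype on the y axis; dashed lines mark 2-fold. Genes of the 3 sarcomere lists (blue) lie mostly far below the lower line, those of DNA replication and mitosis (red) lie around the upper line, and 6 named genes are circled.

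The null background and the cell type were examined first. Emd, at X:74254674-74261563 (GRCm38), stood at 1854 in wildtype and 1.34 in Δ95–99. On day 1 it was also near 0 in the untransduced null line (2.36) and in the null line given wildtype emerin (1.88). Its level thus does not tell Δ95–99 from these lines. Emd therefore reads the null background, and the level of the mutant transcript was not measured here. All 8 markers of myogenic cells passed the minimum of 10 in at least 1 group. Of the 8 immune markers, 3 did, and the pan-leukocyte gene Ptprc stood at 0.264 and 0.372. The summed immune marker level was 958 in wildtype and 304 in Δ95–99, most of it Cd74 (839 and 257). Endothelial Cdh5 (2.92 and 1.26) and epithelial Epcam (2.80 and 5.62) were also near 0. Other members of these lists were not, such as immune Itgam (81.6 and 2.51), endothelial Tek (32.0 and 26.1) and epithelial Krt19 (81.6 and 50.6). At least 10 was reached by 6 of 8 smooth muscle or pericyte, 4 of 8 fibroblast, 3 of 8 endothelial, 2 of 8 epithelial, 3 of 8 Schwann or neural, 3 of 8 adipocyte and 4 of 8 bone or cartilage markers. The summed level of 8 myogenic markers was 131411 in wildtype and 60898 in Δ95–99. Bulk RNA cannot tell fewer cells of a kind from less RNA per cell.

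Sequences of 4 promoters are shown first because they belong to 2 groups of genes that lay on opposite sides of wildtype. They come from RefSeq (GRCm38.p6) and cover the 250 bases before the start. They are, in each group, the 2 genes with the largest difference among those that hold both motifs sought for that group in those bases. Outside a chromosome that was left out of the choice, 3 muscle genes and 13 cell division genes held both. Of the muscle genes, Myoz2 encodes a Z-disc protein (chr3:123034988-123035237, minus strand). Klhl41 encodes a regulator of thin filament stability (chr2:69669870-69670119, plus strand). In both, capitals mark the E-box CAGCTG bound by myogenic bHLH factors and a match to the MEF2 motif, which is AT-rich in these 2 promoters. In the cell division genes Espl1, which encodes separase, at chr15:102296043-102296292 on the plus strand, and Kif11, a spindle motor at chr19:37376132-37376381 on the plus strand, capitals mark CCAAT and the cell cycle element TTTGAA, each on either strand.
Myoz2: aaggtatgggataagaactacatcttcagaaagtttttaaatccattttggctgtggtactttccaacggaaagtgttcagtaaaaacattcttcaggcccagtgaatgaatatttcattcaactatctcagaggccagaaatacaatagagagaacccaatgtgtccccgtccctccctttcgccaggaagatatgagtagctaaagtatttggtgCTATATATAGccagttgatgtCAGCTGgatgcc
Klhl41: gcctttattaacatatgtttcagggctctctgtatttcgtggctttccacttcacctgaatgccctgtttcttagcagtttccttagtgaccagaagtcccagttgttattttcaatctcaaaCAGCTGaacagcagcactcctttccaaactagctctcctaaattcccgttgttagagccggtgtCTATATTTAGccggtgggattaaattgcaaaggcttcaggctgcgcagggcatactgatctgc
Espl1: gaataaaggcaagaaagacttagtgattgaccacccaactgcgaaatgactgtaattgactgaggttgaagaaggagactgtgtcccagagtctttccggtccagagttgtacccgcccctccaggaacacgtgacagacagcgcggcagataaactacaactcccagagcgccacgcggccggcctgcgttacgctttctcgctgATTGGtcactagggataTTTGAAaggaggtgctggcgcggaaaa
Kif11: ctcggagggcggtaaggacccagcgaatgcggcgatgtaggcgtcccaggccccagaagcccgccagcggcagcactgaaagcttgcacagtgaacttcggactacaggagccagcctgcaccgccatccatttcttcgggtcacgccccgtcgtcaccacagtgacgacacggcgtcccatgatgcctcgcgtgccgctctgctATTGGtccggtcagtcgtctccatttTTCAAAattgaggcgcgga

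Motifs were counted on both strands in windows from 250 bases before to 50 bases after each RefSeq start. Of the 88 compared genes of the sarcomere, excitation-contraction coupling and neuromuscular lists, 62 had a promoter in this set, and the rest are not covered. CAGCTG was present in 32 of their 75 promoters (42.7%) and in 16.3% of all 32851 promoters. The MEF2 motif was sought in a loose form, with any base allowed at its central positions. This form was present in 13.3% of the muscle promoters against 3.69% of all. These shares can include matches that are not AT-rich, and the AT-rich form was not counted separately. The same loose form was used in choosing Myoz2 and Klhl41. Of the 74 DNA replication and mitosis genes, 58 had a promoter in this set. Among their 65 promoters, CCAAT was found in 66.2% against 37.4% of all, and TTTGAA in 43.1% against 17.9%. A match says only that these letters are in the window. Myoz2 itself stood at 261 in wildtype and 14.5 in Δ95–99, and Klhl41 at 2588 and 643. Espl1 stood at 668 and 1587, and Kif11 at 1511 and 3352. The 4 were chosen by the size of their difference, so their directions are no finding about the motifs. Myoz2, Klhl41 and Kif11 are named for their promoters, outside the rule for named genes.

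The factors that drive the myogenic program were examined next. Myogenin, the factor required for terminal differentiation, was lower: Myog at 1:134290004-134292548 stood at 38714 in wildtype and 10460 in Δ95–99, a log2 difference of -1.89. Myod1, which commits cells to the muscle lineage, was 18155 against 10886, a difference of -0.74 and so within 2-fold. Myf5, expressed in undifferentiated myoblasts, went the other way, at 241 against 1514. Pax7, the factor that marks satellite cells, was 145 in wildtype and 1591 in Δ95–99, a log2 difference of 3.44. Its paralog Pax3 stood at 238 and 405 and did not reach 2-fold. The 2 factors of the early state were thus several times higher in Δ95–99 while myogenin was several times lower.

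All 3 Mef2 genes compared were lower in Δ95–99. Mef2c stood at 4224 in wildtype and 93.5 in Δ95–99, the largest gap among them, with a log2 difference of -5.48. Mef2a was 18581 against 7290, and Mef2d was 6478 against 3167. Among inhibitors and partners of myogenic bHLH factors, 1 of 11 was higher and 1 was lower. The higher was Id2, which sequesters E proteins, at 403 and 1377, and the lower was the repressor Bhlhe41, at 1463 and 646. Id1 (675 and 809), Id3 (1223 and 1485) and the E protein gene Tcf12 (6260 and 4233) stayed within 2-fold. Eya4, a transcriptional cofactor upstream of the myogenic factors, was 3461 and 1287, a difference of -1.43. Of 7 progenitor factors compared 1 was higher and 2 were lower.

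The 3 lists of the contractile apparatus had the lowest medians of the 44 lists. All 14 sarcomeric myosin genes compared were at least 2-fold lower in Δ95–99, as were 14 of 16 thin filament genes and 27 of 29 genes of the Z-disc and M-band, and none was at least 2-fold higher. The median log2 differences were -3.87, -3.53 and -3.15, beside -0.01 over all genes. Together the 59 genes made up 3.17% of the summed level in wildtype and 0.707% in Δ95–99.

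Embryonic myosin heavy chain, Myh3, at 11:67078273-67102291, was the most abundant heavy chain per kilobase of transcript in both lines, at 11914 normalized counts per kilobase in wildtype and 669.8 in Δ95–99. In normalized counts it stood at 72069 and 4052, a log2 difference of -4.15. Perinatal Myh8 was 8225 against 206. Of the adult fast isoforms, Myh1 was 4767 against 1141, the narrowest gap among the heavy chains, and Myh2 was 730.4 against 1.55, the widest. The slow isoform Myh7 stood at 1525 and 116. Myh6 and Myh7 share near-identical sequence, so their split is uncertain. The light chains were lower as well, with Mylpf at 19416 and 1889 and Myl4 at 16922 and 1114.

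In the thin filament, skeletal actin Acta1 was 64666 in wildtype and 5854 in Δ95–99, and cardiac actin Actc1, the earlier isoform in development, was 31006 and 7543. Nebulin, which sets thin filament length, stood at 26531 and 1470. The pointed-end cap Tmod1 had the largest difference of the list, -4.55, with 1734 and 73.3. The troponins were between -4.01 (Tnnc1) and -2.39 (Tnni2). The exceptions were tropomyosins that other cells also use: Tpm1 was 28219 and 27136, and Tpm3 was 7781 and 13045. Muscle tropomyosin Tpm2, by contrast, was 40087 and 9692.

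At the Z-disc and M-band, α-actinin 2 (Actn2) was 7670 in wildtype and 141 in Δ95–99. Myomesin 1, which links thick filaments at the M-band, was 2401 and 68.8, and obscurin was 2475 and 79.8. Telethonin, the titin cap Tcap, was 241 and 5.8. The slow myosin-binding protein gene Mybpc1 was 1174 and 25.3. Each of these 5 was more than 16-fold lower, with log2 differences between -5.76 and -4.94.

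Genes that couple the membrane signal to calcium release followed, with 16 of 18 lower, none higher and a median of -3.06. The calcium store protein Casq1 was 206 and 2.64, and Casq2, its form in early muscle, was 11567 and 562. The voltage sensor Cacna1s was 2527 and 82.5, and the release channel Ryr1 was 5994 and 573. The fast calcium pump Atp2a1 was 11549 and 1083. Atp2a2, the pump found in most cells, was 15170 and 7677, and together with Asph (3331 and 2597) it made up the 2 genes within 2-fold.

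Metabolic genes of muscle had 12 of 15 members lower, with a median of -2.27. Creatine kinase Ckm was 1983 and 70.9, myoglobin (Mb) was 1218 and 148, and the phosphoglycerate mutase Pgam2 was 1539 and 154. At the neuromuscular synapse 9 of 11 genes were lower (median -1.82). The fetal receptor subunit Chrng was 4998 and 743, Chrna1 was 22840 and 8137, and the agrin co-receptor Lrp4 was 6730 and 1660. Agrin itself was 1209 and 1452. Of the dystrophin complex 9 of 14 were lower. They included α-sarcoglycan Sgca (2517 and 451) and α-dystrobrevin Dtna (1502 and 246), while dystrophin's relative Utrn was 5982 and 4342.

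Fusion and adhesion genes were mixed, with 10 of 21 lower and 1 higher. Myomaker (Mymk), a membrane protein required for fusion, was 17452 in wildtype and 2198 in Δ95–99. Its partner myomixer (Mymx), named because of its day 0 value below, was 828 and 313. Caveolin 3 was 1926 and 83.4, dysferlin was 2369 and 527, and the metalloprotease Adam12 was 1491 and 129. Both junction adhesion molecules named by the rule, Jam2 (3715 and 951) and Jam3 (3904 and 962), were lower.

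**Figure D2:**
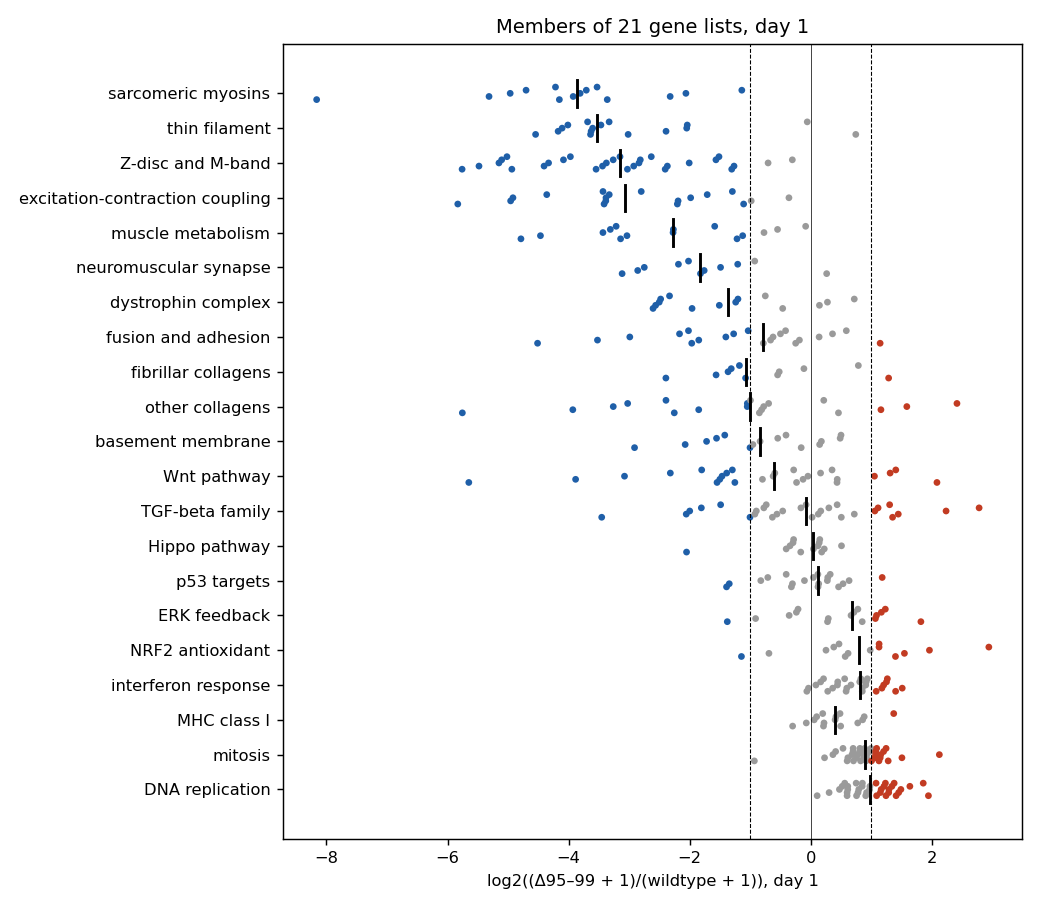
Each point is 1 member of the list named on the y axis, at its log2 difference of Δ95–99 from wildtype on day 1; red is at least 2-fold higher, blue at least 2-fold lower, grey neither, and the black bar is the list's median. The muscle lists have medians from -3.87 to -1.37, apart from fusion and adhesion at -0.78. Fibrillar collagens, at -1.08, lie to the left of that list. The lists of DNA replication and mitosis sit to the right of 0 apart from 1 gene.

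Genes of cell division lay on the other side. None of the 36 DNA replication genes was lower, 17 were at least 2-fold higher, and all 36 had a difference above 0 (median 0.98). Of 38 mitosis genes 13 were at least 2-fold higher and none lower, with a median of 0.89. Both lists together took 0.612% of the summed level in wildtype and 1.22% in Δ95–99. With the groups divided by their sums, the count of mitosis genes became 22.

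The helicase loader Cdc6 was 358 in wildtype and 1300 in Δ95–99, and the helicase subunit Gins2, with the largest difference of its list, was 191 and 739.6. Mcm5, part of the replicative helicase, was 1372 and 3858. The sliding clamp Pcna was 3533 and 9680, and thymidine kinase Tk1 was 479 and 1494. Gins2, Pcna and several other genes here share sequence with a neighbour or a pseudogene, which leaves their reads less certain, since the counting was not stated to use strand. In mitosis, the transcription factor Mybl2 was 201 and 880.1, the checkpoint kinase Bub1b was 1366 and 3886, and Foxm1, which drives mitotic genes, was 1253 and 2889.

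Upstream of these, cyclin D1 (Ccnd1, at 7:144929931-144939831), which carries growth signals into the cycle, was 3232 and 10998, a difference of 1.77. Cyclin D3, the D-type cyclin of differentiating muscle, was 9106 and 6146. The S phase cyclins Ccne1 (1380 and 3102) and Ccne2 (559 and 1810) were higher, and so was the repressor E2f7 (453 and 1056). E2f1 was 1311 and 1402. In all, 4 of 19 G1 cyclins, CDKs and E2F genes were higher and none lower. The retinoblastoma gene Rb1, which holds cells out of the cycle, was 10425 and 4452, the 1 gene lower among 10 pocket proteins and CDK inhibitors. The CDK inhibitors Cdkn1a (p21) and Cdkn1c (p57) were 44920 and 28476, and 3047 and 2025, both within 2-fold. Of 19 genes in the p53 list 1 was higher and 2 were lower, beside 8.84% and 12.1% of all compared genes. Among the lower was Pmaip1 (6935 and 2645), and the p53 gene Trp53, also in the list, was 3723 and 5781.

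Most genes of the nuclear envelope and of emerin's partners were within 2-fold. Of 13 lamina and LEM genes, Emd was lower and 1, lamin B1, was higher (1213 and 2644). Lmna, which encodes lamins A and C, was 21055 and 21175, a difference of 0.01. The BAF gene Banf1 was 1186 and 1948. Hdac3 was 1748 and 1858, a difference of 0.09, and its corepressor Ncor1 (4749 and 3785) was also within 2-fold. In the list of deacetylases and corepressors 2 of 16 were lower, beside 12.1% of all compared genes. They were Hdac9 (115 and 25.1) and Hdac11 (1149 and 320.2). Of the LINC complex, which ties the nucleus to the cytoskeleton, nesprin 1 (Syne1) was 3901 and 1016, whereas nesprin 2 (Syne2) was 399 and 690.5, and 2 of the complex's 7 listed genes were lower. Among 10 genes of polycomb repressive complex 2, Phf19 alone was past 2-fold (52.4 and 213), and the methyltransferase Ezh2 was 1579 and 2639.

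The extracellular matrix was lower in parts. Of 11 fibrillar collagens 6 were lower and 1 higher (median -1.08), and of 19 other collagens 9 were lower and 3 higher. Col1a1, a chain of the main collagen of connective tissue, was 9368 in wildtype and 1784 in Δ95–99, and Col5a2 was 30922 and 12450. Col25a1, a membrane collagen of developing muscle needed for its innervation, had the largest difference of the collagens, -5.76, with 2115 and 38.2. Basement membrane genes had 6 of 15 lower, such as Nid2 (17680 and 5366) and Lamb2 (3420 and 1278), while both main collagen IV chains, Col4a1 (11434 and 12670) and Col4a2 (5796 and 6552), were similar.

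Matricellular and elastic fibre genes had 6 of 22 lower and 1 higher. The higher was osteopontin, Spp1, at 17045 and 45331, and among the lower was Postn, at 504 and 77.1. Crosslinking and protease genes were split, with Lox at 6600 and 2405 and Loxl4 at 43.4 and 242. Among integrins 6 of 20 were lower, including Itga4 (1205 and 364) and Itga6 (5939 and 2374). The shared subunit Itgb1 was 25053 and 21284. The summed level of the fibroblast markers, 7 of which were listed, was 616 in wildtype and 1101 in Δ95–99. Most of it was Ly6a (554 and 1034), whose wildtype level ran from 417 to 1058 over the tables that hold it, so its direction is not fixed. Of the other fibroblast markers Cd34 was higher (14.7 and 49.2) and Dpt lower (a log2 difference of -2.06), Pdgfra was within 2-fold (25.8 and 13.6), and Pi16, Dpp4 and Clec3b were under 10 in both lines. The sum of 7 listed smooth muscle and pericyte markers was 71349 and 24138, mostly Acta2, which early myoblasts also make. Their part in the matrix differences was not tested.

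Signalling genes lay on both sides of wildtype within most lists. In the Wnt list 11 of 26 were lower and 4 higher. The ligand Wnt10a was 209 and 3.18, and Axin2, a target and brake of the pathway, was 114 and 6.82. Within the TGF-β family 7 of 29 were higher and 6 lower. The BMP antagonist Grem1 (159 and 1097) was higher, and the ligand genes Bmp4 (64.2 and 4.95) and Tgfb3 (6954 and 1987) were lower. The myostatin and activin antagonist follistatin (Fst) was 4048 and 1012.

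Of 12 Notch pathway genes 2 were higher and 2 lower: the targets Hey1 (123 and 310.3) and Hey2 (33.8 and 88.7) against the target Heyl (1789 and 438) and the Numb relative Numbl (1347 and 671). Igf2, a growth factor that muscle cells secrete as they differentiate, was 50719 and 20396, one of 5 lower among 16 insulin-like growth factor genes. In the Hippo pathway only Tead4, a factor linked to myoblast differentiation, passed 2-fold among 13 genes (2695 and 649), and Yap1 was 2570 and 2916. Of 21 Yap target genes 2 were higher and 4 lower. Ccn2 (705 and 241) and Ankrd1 (11857 and 5221) were lower, and Wwc1, an upstream regulator as well as a target, was higher (32.0 and 258). Of 16 genes of ERK feedback 5 were higher, among them the ERK phosphatases Dusp4 (263 and 619) and Dusp6 (400.0 and 900.1) and the ETS factor Etv4 (146 and 517), and Spry1 was lower (658 and 253).

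The antioxidant and interferon response lists held more higher than lower genes. Of 14 genes in the list of the antioxidant factor NRF2 and its targets, 6 were higher and 1 lower. Glutathione reductase Gsr was 304 and 2348, and the quinone reductase Nqo1 was 215 and 842. Among 27 interferon response genes 7 were higher and none lower (median 0.81). Rsad2 was 140.5 and 403, and Ifit1 was 534 and 1415. Cxcl10, another of the 7, had a log2 difference of 1.21, but its wildtype level reached 197 in another table, within 2-fold of the 309 in Δ95–99. Interferon-inducible genes outside the list lay at both extremes, with Ifi202b and Gbp2b among the lowest of all genes and Irgm2 and Ifi211 among the highest. Both lines had been kept in γ-interferon before differentiation. Of 15 class I MHC genes 1 was higher, H2-T22 (1452 and 3761), and β2-microglobulin (B2m) was 29844 and 55101. Glycolytic and hypoxia genes had 3 of 25 lower, such as Aldoa (43899 and 18998), beside 12.1% of all compared genes. Of 18 ATF4 and unfolded protein genes 1 was higher, Atf3 (22.9 and 52.7), and of 23 sterol and fatty acid genes 2 were lower, among them Scd1 (6181 and 3088). The other lists are summarized by their counts. Of 20 cytokine genes 5 were higher and 2 lower, of 24 matrix proteases and crosslinkers 3 were higher and 8 lower, of 9 syndecans and glypicans 2 were higher and 1 lower, and of 19 actin and SRF targets 5 were lower.

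The day 1 gap was then set beside days 0 and 2, which come from other libraries of both lines and from tables normalized separately. On day 0, 749 of 13355 compared genes were higher in Δ95–99 (5.61%) and 902 lower (6.75%), and on day 2, 1762 of 13453 were higher (13.1%) and 1198 lower (8.91%). Of the 1195 genes higher on day 1, 1107 were compared on day 0 and 431 were higher there too, which is 38.9% of those and 57.5% of the day 0 list. On day 2, 764 of 1084 were higher (70.5% of those, 43.4% of the day 2 list). Of the 1632 lower genes, 568 of 1400 were lower on day 0 (40.6%, and 63.0% of that list) and 836 of 1543 on day 2 (54.2%, and 69.8% of that list).

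For the muscle lists day 1 was the widest point. The median of sarcomeric myosins was -1.07 on day 0, -3.87 on day 1 and -1.59 on day 2. Within wildtype the median member stood 2.52 log2 units above its day 0 level on day 1, and within Δ95–99 the value was -0.11. From day 1 to day 2 the median member moved by 2.03 in wildtype and by 4.23 in Δ95–99. The Δ95–99 line thus had its larger step in the second day, and wildtype had the larger one in the first. Excitation-contraction coupling genes had the same order, -0.57, -3.06 and -1.21 on days 0, 1 and 2.

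Myh3 shows the pattern by level. In wildtype it was 9160 on day 0, 72069 on day 1 and 268005 on day 2, and in Δ95–99 it was 3768, 4052 and 75016. Myog was 7837, 38714 and 51301 in wildtype against 6483, 10460 and 41086, so the lines were within 2-fold of each other on days 0 and 2. Mef2c in Δ95–99 went down before it went up, with 363, 93.5 and 2368, whereas wildtype had 1360, 4224 and 11797. Pax7 was 388, 145 and 54.4 in wildtype and 1549, 1591 and 957 in Δ95–99, higher in the mutant line on all 3 days.

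**Figure D3:**
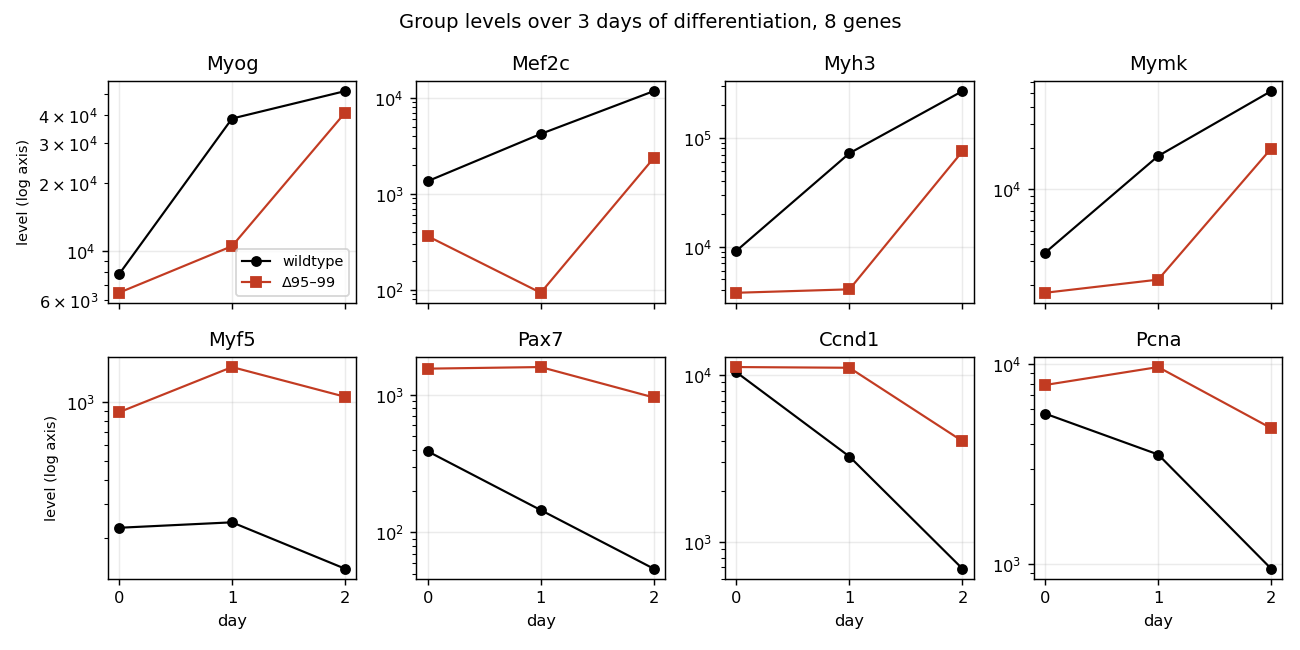
Group level (y axis, log axis, normalized counts; scales differ between panels) against day (x axis) for 8 genes in wildtype (black circles) and Δ95–99 (red squares), each day from its own table. Myog, Mef2c, Myh3 and Mymk in Δ95–99 stayed near or under their day 0 levels on day 1, apart from Myog at 10460 against 6483, and went up by day 2, while Ccnd1 and Pcna stayed high in Δ95–99 on day 1.

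Cell division genes had another course. The median difference of the DNA replication list was 0.07 on day 0, 0.98 on day 1 and 1.80 on day 2, and that of mitosis was -0.04, 0.89 and 3.58. In wildtype the median mitosis gene went down by day 1 (-0.95) and further by day 2 (-4.52), and in Δ95–99 the values were -0.09 and -1.81. The gap therefore opened on day 1 and was wider on day 2. Ccnd1 was 10332, 3232 and 688 in wildtype over the 3 days and 11106, 10998 and 3999 in Δ95–99. The p53 list, by contrast, had a like step in both lines from day 0 to day 1, with medians of 1.76 in wildtype and 1.77 in Δ95–99.

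**Figure D4:**
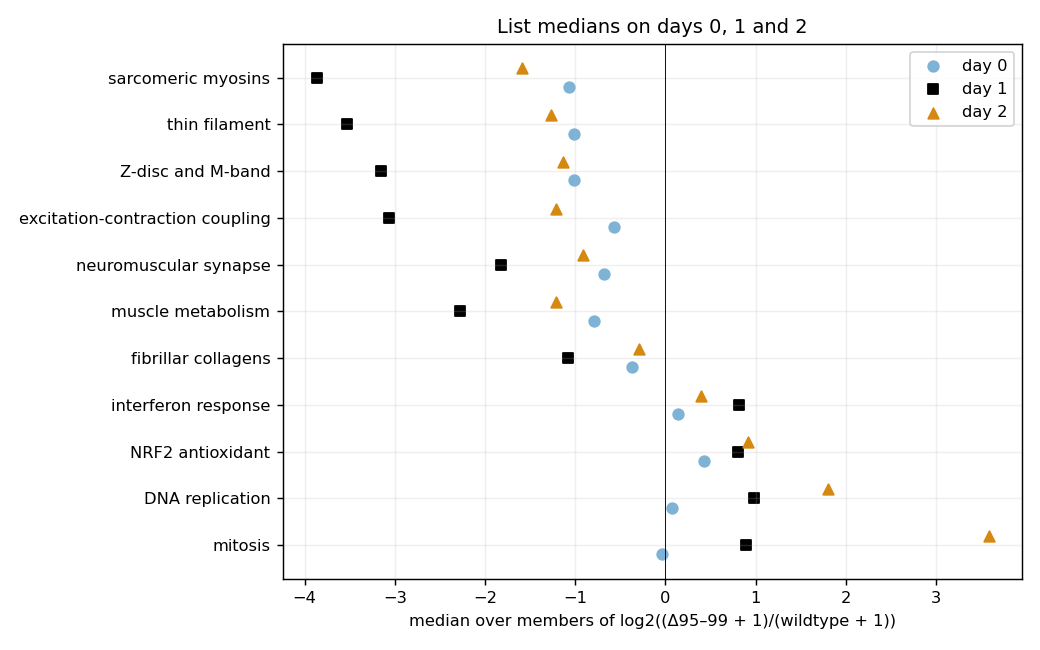
Median log2 difference of Δ95–99 from wildtype over the members of 11 lists (x axis) on day 0 (circles), day 1 (squares) and day 2 (triangles). Muscle lists are farthest below 0 on day 1, and DNA replication and mitosis are near 0 on day 0 and farthest above it on day 2.

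The other lines made from EMD−/y cells were compared with the same wildtype libraries on day 1, so their values are set side by side only. S54F and Q133H are null cells transduced with other disease-causing emerin mutants. By the study's methods, the puromycin dose used for selection was not the same in all transduced lines. Sarcomeric myosins had a median of 0.25 in the untransduced null line, -1.11 in S54F, -1.66 in the null line with wildtype emerin, -3.87 in Δ95–99 and -4.18 in Q133H. Of the transduced mutants, Δ95–99 and Q133H lay near each other and S54F was nearer wildtype. The untransduced null line was near wildtype. For Myh3 the levels were 74735 in the null line, 32606 in S54F, 12709 with wildtype emerin, 4052 in Δ95–99 and 1996 in Q133H.

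DNA replication genes had medians of 0.09, 0.62, 1.27, 0.98 and 0.80 in the same order. Interferon response genes were above wildtype in Δ95–99 (0.81) and Q133H (1.14). They were below it in the null line (-0.43), in S54F (-0.50) and with wildtype emerin (-1.19). Pax7 did not follow the muscle genes: it was 1591 in Δ95–99, 1953 with wildtype emerin, 862 in the null line and 6.54 in Q133H.

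**Figure D5:**
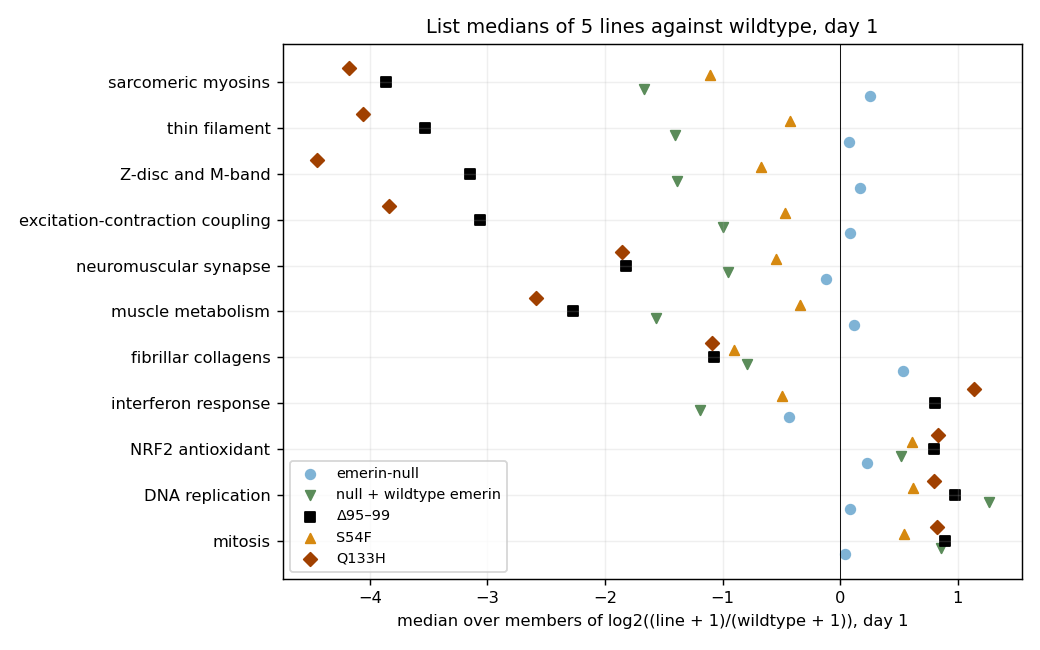
Median log2 difference from wildtype over the members of 11 lists (x axis) on day 1 in 5 lines that share the wildtype libraries. For the muscle lists Δ95–99 (squares) and Q133H (diamonds) are farthest left, and the emerin-null line (circles) is near 0.

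Genes at both ends of the day 1 differences were examined last, among those with a level of at least 100 and an established symbol. Predicted genes and genes with a Gm, LOC or Rik name or with no symbol were left out, of which 29 lay below the last of the 12 lowest named here and 5 above the last of the 12 highest. Of the genes that remained, the 12 lowest held Emd, Ankrd2, a stretch-responsive muscle gene (3553 in wildtype and 12.1 in Δ95–99), Myh2 and the connexin gene Gja5 (2559 and 25.4). They also held the enolase copy Eno1b (6218 and 17.2), the interferon-inducible genes Ifi202b (732 and 2.44) and Gbp2b (155 and 0.836), and H2-Q1 (405 and 2.24). Galnt6 (558 and 5.12), Sel1l3 (598 and 4.43), Tenm4 (185 and 0.831) and Sorcs1 (318 and 2.65) made up the rest. Eno1b, Ifi202b, Gbp2b and H2-Q1 were also far apart on day 0, when Ifi202b was 2141 and 2.14, and they were at or under 59.4 in each line made from null cells on day 1.

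The 12 highest among the same genes were led by Irgm2, an interferon-inducible GTPase (1.29 in wildtype and 2924 in Δ95–99). Its wildtype level ran from 1.29 to 171 over the 7 tables that hold wildtype day 1, so the size of its difference is not fixed by these files. With the levels farthest against it, the log2 difference of Irgm2 was 4.09. Next came the histone gene H2ac24 (1.05 and 475), Ifi211 (8.45 and 1324), Rpl26 (71.0 and 7063), Zfp729b (1.01 and 158), Kpna2 (91.5 and 6491), Cldn34c1 (0.852 and 115), Eif2s3y (15.6 and 871), Six2 (9.49 and 471), Ptprm (2.99 and 167), Cpne4 (5.05 and 252) and Lbx1 (2.94 and 164). The level of 1 group differed by over 1.5 times between tables for 7 of the 12 highest, namely Irgm2, H2ac24, Zfp729b, Cldn34c1, Ptprm, Cpne4 and Lbx1, and for 4 of the 12 lowest, namely Emd, Myh2, Ifi202b and H2-Q1. In each it was the group with the lower level that varied, and each of these 11 genes kept its direction at over 2-fold with the levels farthest against it. H2ac24 was reversed on day 0, at 720.2 in wildtype and 1.57 in Δ95–99, and stood at 7.26 and 139 on day 2. H2ac24, Ifi211, Rpl26, Zfp729b, Kpna2 and Cldn34c1 share at least 200 bases at 97% identity or more with another gene, as does Eno1b, so reads could be split between copies. Eif2s3y was 1171 in the null line, while the Y-linked genes Ddx3y (1708 and 1321) and Uty (746 and 513) were within 2-fold between wildtype and Δ95–99. Six2 and Lbx1, homeobox genes of muscle precursors and other tissues, were also higher on days 0 and 2 and in all 4 other lines made from null cells.

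Genes predicted by the sequencing provider from the reads were 1543 of the 17508 listed. Of 836 compared, 171 were higher and 267 lower, and without them 1024 genes were higher and 1365 lower. Among genes higher on day 1, 85 were at least 2-fold lower on day 0, and 76 of those were predicted genes. Of 40 genes lower on day 1 and higher on day 0, 25 were predicted. The annotated exceptions included H2ac24, described above. Others, named after their values were seen, included Pebp1, which stood at 2630 in wildtype and 683 in Δ95–99 on day 0 but 298 and 3203 on day 1, and the ribosomal gene Rps13, at 683 and 1886 on day 0 but 1616 and 343 on day 1. Mymx was the one muscle fusion gene among them, at 100.2 and 223 on day 0, and Postn of the matrix genes was 46.2 and 97.9 on day 0. The cause of these reversals was not tested.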

How the data were processed

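Poly-A RNA was sequenced as paired 100-base reads. Per the study's methods and the labels, the authors' provider filtered reads (SOAPnuke), aligned them to mm10 (HISAT2) and compared groups with DESeq2. The deposited values used here are the authors' group levels, a signal in DESeq2-normalized counts with 1 value per group; their fold changes and p-values were not used. There were 0 columns of values per sample.

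No level was 0. The 6 commonest pairs of low levels (98 to 147 genes each) were 3 with wildtype slightly higher and 3 with Δ95–99 slightly higher, the pattern of 1 read in 1 of 6 libraries, so levels near 0 are drawn together and are not plain means. Read this way, relative depths ran from 0.895 to 1.14. Total reads are unknown.

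A pseudocount of 1, a minimum of 10 and a 2-fold threshold were used (Python 3.11.15, pandas 2.3.3). The rule was first run on simulated plain means of counts with an assumed spread. These levels are not plain means, so that check says nothing about their error. Gene names came from RefSeq for 15940 of 15965 Entrez IDs. Shared sequence was sought in GENCODE M21 transcripts with minimap2 2.31-r1302 (at least 200 bases at 97% identity): 114 of 762 listed or named genes had it, neighbours included. Of the 44 gene lists, 1 (Y-linked genes and Xist) is reported only by the genes named. The members and lists were chosen with earlier results of these data known. Named genes were Emd and 6 genes the study discusses, up to 6 members per list past 2-fold at a level of 50, any compared member of a list of at most 20, and the 12 lowest and 12 highest at a level of 100 with an established symbol (no predicted, Gm, LOC or Rik gene). Some genes that this rule names are not reported here.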

Additional observations from a re-analysis of the deposited data

How the results depend on the processing

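The counts of genes at least 2-fold apart stayed within 1.5 times their main values under a pseudocount of 0.1 or 10, no minimum or a minimum of 50, division by group sums, centring on the median, levels taken from the tables of each line over time, and removal of predicted genes. They ranged from 844 to 1501 higher and from 1200 to 1932 lower. A 1.5-fold threshold gave 2454 higher and 2602 lower, and a 4-fold threshold 353 and 760. At 1.5-fold, 31 DNA replication and 33 mitosis genes were higher, and at 4-fold 0 and 1. At 4-fold 5 neuromuscular synapse genes were lower. Division by group sums gave 22 mitosis genes, and moved 4 of the 44 list counts of higher genes and 5 of the 44 of lower genes by over 1.5 times. The medians of the 44 lists each moved by less than 1.5-fold in these alternatives, thresholds aside, and no named gene past 2-fold changed direction. An alternative chosen after seeing the data, leaving out 422 genes whose day 1 level differed by over 1.5 times between tables, gave 1029 higher and 1449 lower.

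Leaving out replicates was not possible, since each group has 1 level. No paired analysis was possible because the columns carry no replicate numbers. Without a spread between libraries, no difference was set against replicate error.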
